A study of Mus musculus with 14 samples.

Results

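Liver organoids were set against the liver tissue they are named after, on 4 of the 14 arrays of a study of mouse gallbladder, liver and small intestine. The members were chosen by title: 2 arrays of liver organoids and 2 of liver tissue, all from C57BL/6 mice. Organoids are epithelial cultures that grow as hollow or budding structures in a gel. Per the labels, they were kept in Matrigel, in AdDMEM/F12 medium with B27, N2, N-acetylcysteine, the growth factors EGF, FGF10 and HGF, nicotinamide, and conditioned media with R-spondin 1 and noggin. R-spondin 1 amplifies the Wnt signal, and noggin binds BMP ligands and keeps them from their receptors. Liver tissue was taken for RNA without culture. The small intestine groups used below for comparison, organoids and tissue with 2 arrays each, came from the same strain, and their organoids are described with the same medium. The labels do not say which part or cell of the liver started the organoids, the age or sex of the mice, or whether the replicates of a group came from separate animals or cultures, so p-values may measure technical spread only.

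A liver is mostly hepatocytes, which make the plasma proteins and bile acids, detoxify drugs and run the urea cycle and glucose output. The bile ducts are lined by a second epithelium, the cholangiocytes, which carry keratins 7 and 19 and move salt, bicarbonate and water into bile. Sinusoidal endothelium, Kupffer cells (the macrophages of the liver) and stellate cells fill the space between. All of these contribute RNA to a piece of tissue. In bulk RNA, fewer cells of a type and less RNA per cell cannot be told apart, and this holds for every tissue comparison below.

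Values are log2 signals of 1 probe set per gene, and a difference is the mean of the organoid arrays minus the mean of the tissue arrays, so 1 unit is a doubling. Of 19938 genes, 5325 were higher in liver organoids and 3627 lower at an adjusted p below 0.05 (limma, Benjamini-Hochberg over all genes, n = 2 against 2). That is 26.7% of genes called higher and 18.2% called lower, 44.9% in all, and every count below is to be read against these shares. With a difference of at least 1 log2 unit as well, 2546 genes were higher (12.8%) and 1901 lower (9.53%). The largest differences were mostly losses: 281 called genes were lower by 5 log2 units or more, against 61 higher by as much. The median difference over all genes was 0.0046.

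**Figure D1:**
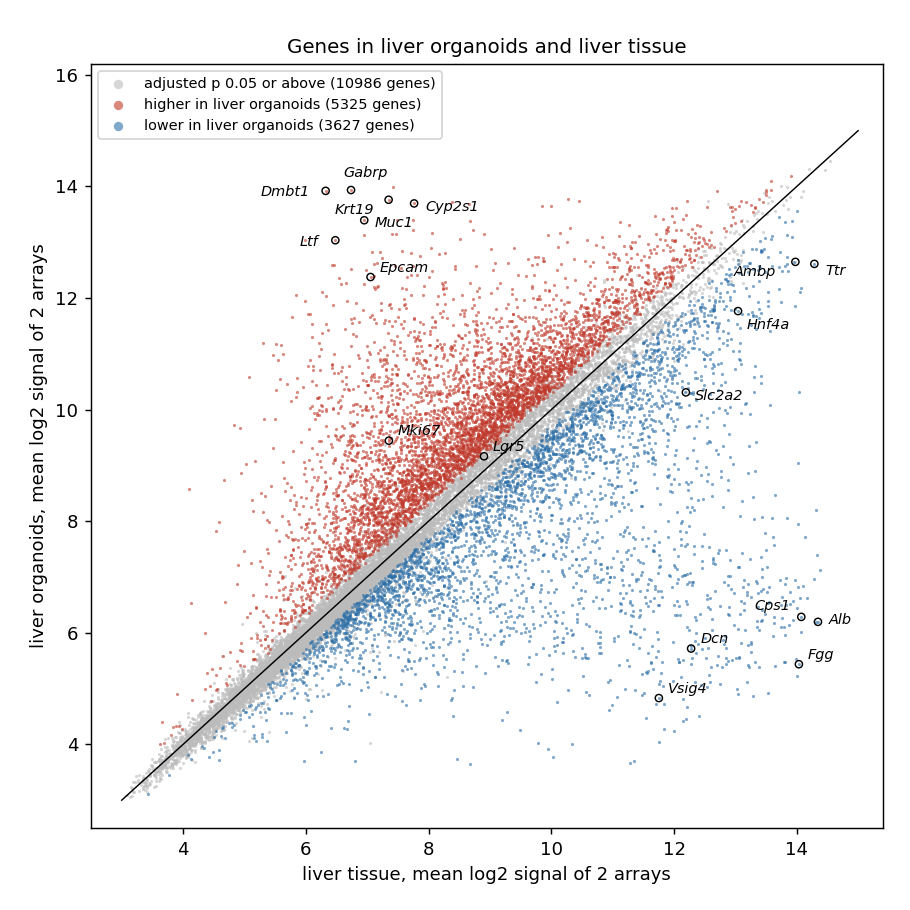
Each point is 1 gene, at its mean log2 signal over the 2 liver tissue arrays (x axis) and the 2 liver organoid arrays (y axis), with the line of equal signal; colours show the 5325 genes called higher, the 3627 called lower and the 10986 not called. Alb, Fgg and Cps1 lie at the bottom right, Dmbt1, Gabrp and Krt19 at the top left, and Ttr, Ambp and Hnf4a lie less than 2 units below the line at high signal.

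The organoid arrays were close to each other (r = 0.996 across genes, which are not independent replicates), and the tissue arrays less so (r = 0.982). Pooled over genes, the SD between replicates came to 0.136 in organoids and 0.289 in tissue. It was larger in gallbladder tissue (0.404) and small intestine tissue (0.368). The fit shares 1 estimate of spread over all 14 arrays, so the standard errors below also carry the spread of those groups. Signals of 14 or more lie near the top of the scale, where differences are compressed. They were read for 6 and 7 genes on the organoid arrays, against 38 and 26 on the tissue arrays, so the differences of the brightest tissue genes may be understated. Raw signals and detection calls were not used here, and a dim gene cannot be called absent. Probe sets of families with near-identical members (Serpina1, Mup, Ces1, Cyp2c, Saa and Ugt genes among those named) may share signal.

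Plasma proteins carried the largest losses. Alb, which encodes albumin (probe set 10523062), read 6.36 and 6.04 on the organoid arrays, against 14.34 and 14.35 on the tissue arrays, a difference of -8.15 ± 0.44 (SE, adjusted p = 3.76e-07). Fgg, the gamma chain of fibrinogen, read 5.42 and 5.46 in organoids, against 14.26 and 13.81 in tissue (-8.60 ± 0.44, adjusted p = 2.51e-07). The arrays of each group lay close together and the groups far apart in both genes. Of 29 measured plasma protein genes, 28 fell and 0 rose, with a median difference of -7.25. The losses ran through carriers (Ahsg -8.13, Serpina6 -8.03, Hpx -7.25), clotting factors (F9 -7.57, F2 -7.37, Plg -7.12) and apolipoproteins (Apoa1 -6.94, Apoc3 -7.25).

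The promoters of an albumin and a fibrinogen gene are shown because HNF1, a homeodomain factor of hepatocytes and other epithelia, is known to bind promoters of this class. The windows run from 250 bases before to 50 after the annotated start (RefSeq, GRCm38.p6), 5′ to 3′ on the strand of the gene, with the HNF1 site element GTTAAT or its reverse complement in capitals. The Alb window lies at chr5:90460620-90460919 on the plus strand and the Fgb window at chr3:83049814-83050113 on the minus strand.
Alb: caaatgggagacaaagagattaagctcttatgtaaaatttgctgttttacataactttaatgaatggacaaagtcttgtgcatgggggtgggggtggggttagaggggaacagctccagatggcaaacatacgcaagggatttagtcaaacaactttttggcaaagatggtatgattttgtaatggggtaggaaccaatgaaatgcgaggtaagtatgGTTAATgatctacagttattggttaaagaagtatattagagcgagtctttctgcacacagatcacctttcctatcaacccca
Fgb: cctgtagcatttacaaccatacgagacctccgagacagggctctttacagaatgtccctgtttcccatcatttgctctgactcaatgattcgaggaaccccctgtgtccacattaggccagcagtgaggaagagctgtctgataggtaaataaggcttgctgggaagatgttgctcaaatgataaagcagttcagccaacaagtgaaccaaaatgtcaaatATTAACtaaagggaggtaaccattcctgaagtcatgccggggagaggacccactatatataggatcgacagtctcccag
The element begins -32 bases from the start of Alb, where -1 is the base before it, and -29 bases from that of Fgb. Fgb read 6.54 and 6.37 in organoids, against 14.11 and 13.91 in tissue (-7.56). On either strand, 7 of the 24 windows of the 22 plasma protein genes in the table held the element (29.2%), against 2332 of all 32851 windows (7.1%). None of the 24, and 3 of all windows, held 2 facing elements 1 base apart. A match is a description of letters and shows no binding.

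Ttr and Ambp stood apart from this group. Ttr, which encodes the thyroid hormone and retinol carrier transthyretin, read 12.67 and 12.56 in organoids, against 14.23 and 14.34 in tissue (-1.67 ± 0.19, adjusted p = 4.23e-05). Its arrays did not overlap, yet its organoid signal was still high. Ambp, the precursor of alpha-1-microglobulin and bikunin, read 12.47 and 12.83 in organoids, against 14.04 and 13.92 in tissue. Its difference of -1.33 ± 0.54 was not called (adjusted p = 0.0734). It was called without either small intestine tissue array, which changes only the estimate of spread. The same held with the 4 liver arrays alone (adjusted p = 0.00197) and with array weights (0.0419). After quantile normalisation the difference was -1.05 and not called (adjusted p = 0.17).

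Enzymes of amino acid breakdown were all lower: 23 of 23 measured fell, with a median of -6.34. Tdo2, the first enzyme of tryptophan breakdown, read 4.86 and 4.97 in organoids, against 13.64 and 13.43 in tissue (-8.62 ± 0.53). Tat, for tyrosine, differed by -7.73, Mat1a, which makes S-adenosylmethionine in liver, by -7.55, and Hgd, for homogentisate, by -7.44. In the urea cycle 6 of 7 fell (median -4.43). Cps1, its entry enzyme, read 6.27 and 6.30 in organoids, against 14.12 and 14.03 in tissue, and Otc and Arg1 differed by -7.40 and -7.19. The mitochondrial aspartate carrier Slc25a13 was not called (-0.76, adjusted p = 0.0707), but it was without either gallbladder tissue array (adjusted p = 0.000586), with the 4 liver arrays alone (0.00497), with array weights (0.0167) and after median centring (0.0309).

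Bile acid genes fell in 19 of 22, with 0 higher (median -5.12). Cyp7a1, the rate-limiting enzyme of bile acid synthesis, read 4.68 and 4.75 in organoids, against 10.88 and 12.78 in tissue (-7.11 ± 0.85), where the tissue arrays themselves lay apart. The uptake carriers of the hepatocyte's blood side, Slco1b2 (-8.13) and Slc10a1 (-7.47), and the bile salt pump of its bile side, Abcb11 (-7.23), fell too. Slc10a2, the bile salt carrier of cholangiocytes and ileum, read 11.14 and 11.25 in organoids, against 11.18 and 10.37 in tissue, and its groups overlapped (adjusted p = 0.836).

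Drug metabolism divided within itself. Of 28 measured genes 20 fell and 4 rose (median -4.44). Cyp2e1, which oxidises ethanol and paracetamol, read 6.16 and 5.86 in organoids, against 14.12 and 14.002 in tissue (-8.05 ± 0.53), and Cyp2c29, Ugt2b1 and Cyp3a11 fell by 7.60, 7.47 and 7.42. Smaller losses left a high signal for Cyp2f2 (12.91 and 12.40 in organoids, against 14.04 and 13.87 in tissue) and the sulfotransferase Sult1d1 (11.26 and 11.13, against 12.88 and 13.26). The glucuronosyltransferase Ugt2b34 read 13.35 and 13.21 in organoids, against 13.02 and 13.27 in tissue, where the groups overlapped, and was not called (adjusted p = 0.394). After quantile normalisation it was called higher (0.49, adjusted p = 0.0116), and 5 genes of the list were higher. Cyp2s1, a P450 of epithelia outside the liver, went the other way, at 13.65 and 13.74 in organoids, against 7.63 and 7.90 in tissue (5.93 ± 0.19, adjusted p = 2.05e-08). Cyp2c65 also rose, by 2.00. Without organoid replicate 2, 2 genes of the list were higher in place of 4.

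Glucose output and storage genes fell in 11 of 12 (median -4.52). Fbp1, fructose bisphosphatase, read 5.45 and 5.52 in organoids, against 13.85 and 13.78 in tissue (-8.33 ± 0.51), and G6pc, which releases free glucose, differed by -6.66. Slc2a2, the glucose transporter GLUT2, split the organoid replicates: 11.96 and 8.66 in organoids, against 11.72 and 12.67 in tissue. Replicate 1 lay within the tissue values and replicate 2 well below them, and the difference of -1.88 ± 0.88 was not called (adjusted p = 0.112). Without organoid replicate 1 it was -3.54 and called (adjusted p = 0.0017).

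Where an enzyme has a liver form and a general form, the forms moved apart. Among liver isoenzymes 7 of 9 fell and 1 rose (median -5.32), and among general isoenzymes 1 of 10 fell and 9 rose (median 2.01). Arginase 1 (Arg1) fell while the mitochondrial arginase Arg2 read 10.32 and 10.57 in organoids, against 7.05 and 6.98 in tissue (3.42). Glycogen phosphorylase of liver, Pygl, differed by -5.32, and the brain form Pygb by 3.24. Glycogen synthase Gys2 differed by -6.29 and Gys1 by 2.15. Pkm, the pyruvate kinase of most cells, read 12.73 and 12.59 in organoids, against 9.81 and 9.92 in tissue (2.79 ± 0.17, adjusted p = 6.61e-07), while its liver counterpart Pklr read 11.36 and 11.41 in organoids, against 11.87 and 13.20 in tissue, and fell by 1.15 (adjusted p = 0.0159; 0.0706 without organoid replicate 1, 0.0633 without organoid replicate 2 and 0.0609 without tissue replicate 2). The exceptions were Pfkl, the liver phosphofructokinase, which rose (1.58) together with Pfkp (3.45), and Acaca, the general acetyl-CoA carboxylase, which fell (-1.62) with the liver form Acacb (-2.82). The call of Acaca did not hold without every array (adjusted p = 0.0223; 0.112 without organoid replicate 1, 0.0594 without organoid replicate 2 and 0.187 without tissue replicate 2).

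**Figure D2:**
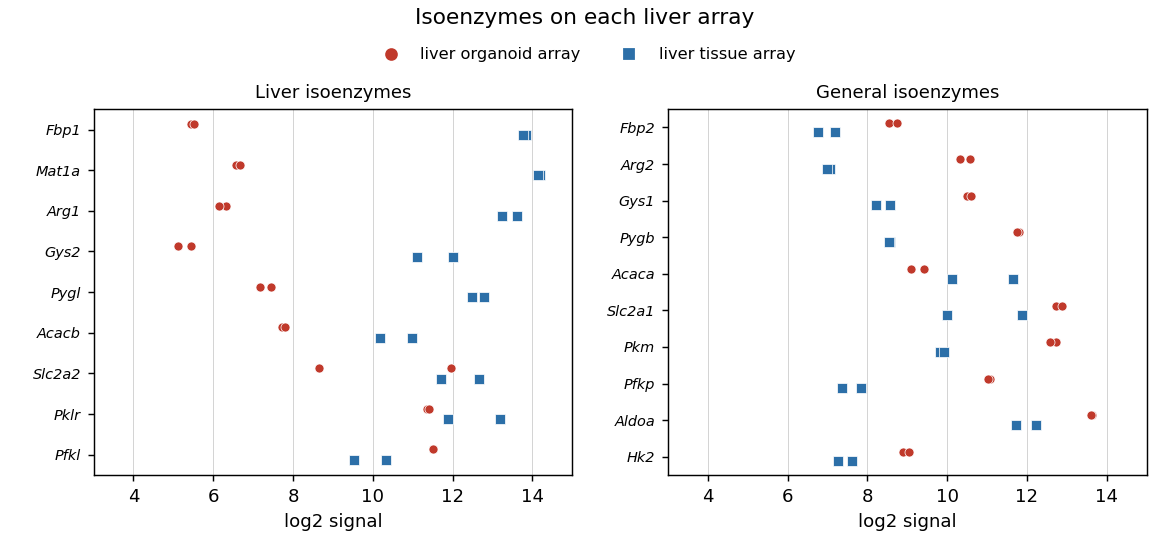
Log2 signal (x axis) of each isoenzyme gene (rows) on the 2 liver organoid arrays (circles, upper in each row) and the 2 liver tissue arrays (squares, lower). Fbp1, Mat1a, Arg1, Gys2 and Pygl are far lower in organoids, and members of the general list other than Acaca are higher. Slc2a2 has its organoid arrays at 11.96 and 8.66.

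Mitochondrial genes fell by less. In fatty acid oxidation and ketone synthesis 15 of 16 fell (median -1.63); the fatty acid carrier and activator Slc27a2 differed by -7.26, but the trifunctional protein subunit Hadha by -0.82. In the respiratory chain 18 of 19 fell, with a median of -0.87, and 13 after quantile normalisation. Of the 18, 9 fell by at least 1 log2 unit. Ndufb8 of complex I differed by -1.98. Uqcrc2 of complex III differed by -0.46, which became -0.09 and was not called after quantile normalisation. Cholesterol synthesis had 4 of 16 lower and 1 higher (median -0.47), against 18.2% and 26.7% of all genes. The desaturase Sc5d fell by 1.29, and the regulator Srebf2 rose by 1.15. The lower genes numbered 1 without either organoid array, 2 without tissue replicate 1 and 7 without either gallbladder tissue array. Iron genes fell in 10 of 15 and rose in 2 (median -2.31). Hamp, the iron hormone hepcidin, read 6.56 and 5.97 in organoids, against 13.85 and 13.67 in tissue, and Trf, transferrin, 6.95 and 6.97 in organoids, against 14.27 and 14.29 in tissue. The transferrin receptor Tfrc was the opposite, at 10.35 and 10.37 in organoids, against 9.49 and 8.92 in tissue (1.16).

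**Figure D3:**
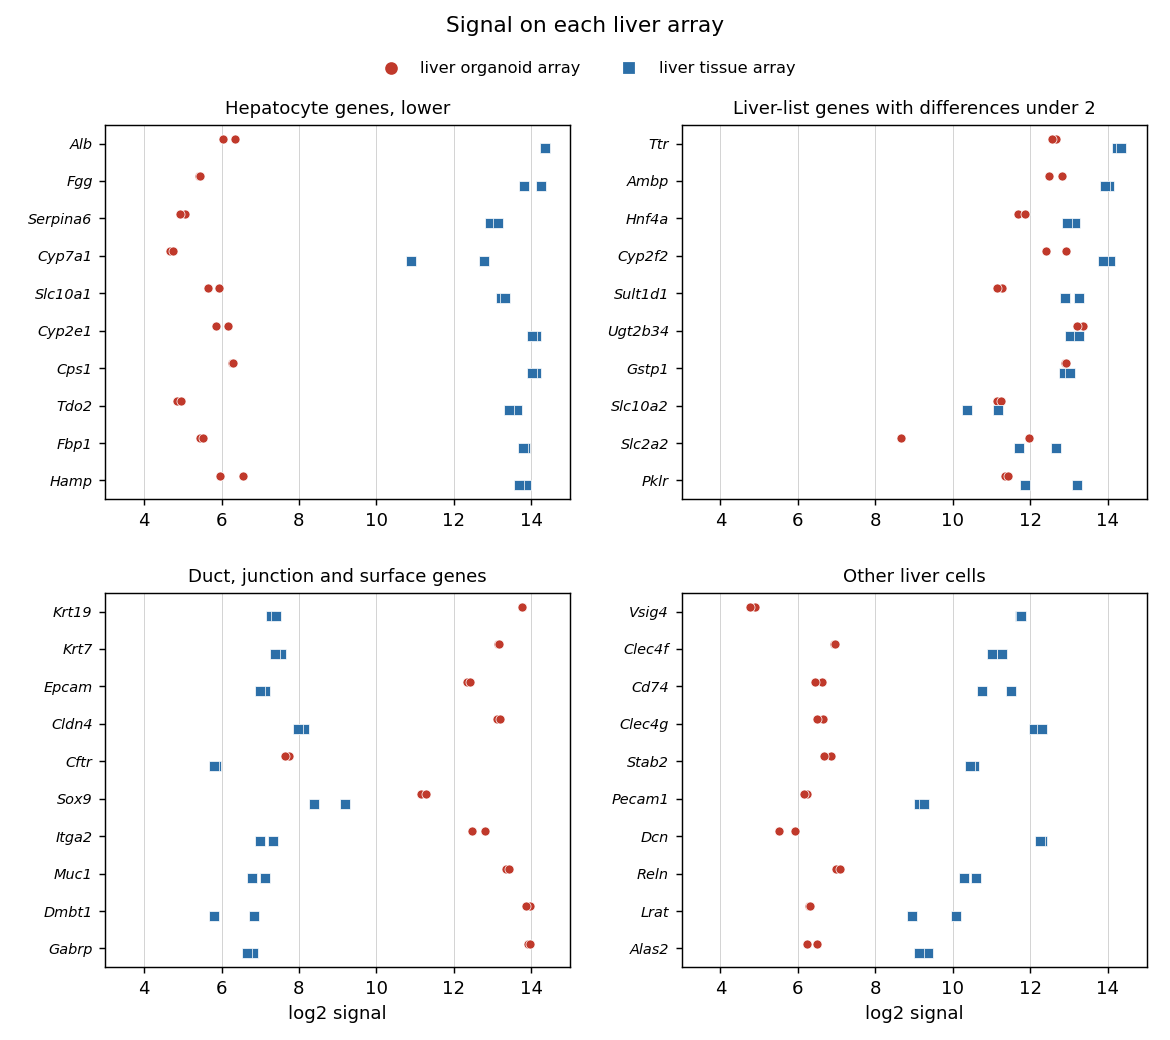
Log2 signal (x axis) of 40 genes (rows) in 4 sets on the 2 liver organoid arrays (circles, upper in each row) and the 2 liver tissue arrays (squares, lower). Organoid and tissue arrays lie far apart for hepatocyte genes, duct and surface genes and markers of other liver cells, and closer for the upper right set, which includes Ttr, Ambp, Hnf4a and Ugt2b34.

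Hepatocytes differ along the lobule, from the portal vessels to the central vein, and both ends were lower. Periportal genes fell in 11 of 13 (median -5.78) and pericentral genes in 12 of 15 (median -3.47). The gene higher in each list was Cdh1, E-cadherin (2.46), and Axin2 (0.74). Glul, the glutamine synthetase that marks hepatocytes next to the central vein, read 12.17 and 12.37 in organoids, against 13.17 and 13.09 in tissue, and was just short of the threshold (adjusted p = 0.0514). It was called without either small intestine tissue array and without either gallbladder tissue array. The same held with the 4 liver arrays alone (adjusted p = 0.00424), with array weights (0.0103), without the dim genes (0.0394) and after median centring (0.0319). After quantile normalisation its difference went from -0.86 to -0.54 and was not called (adjusted p = 0.161). Without either small intestine tissue array the pericentral genes called higher numbered 2.

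The transcription factors of hepatocytes had smaller differences: 12 of 16 fell and 3 rose (median -2.46). Hnf4a, a nuclear receptor needed for hepatocyte identity and also made in gut epithelium, read 11.68 and 11.85 in organoids, against 13.15 and 12.94 in tissue (-1.28 ± 0.31, adjusted p = 0.00641). The largest losses were in Creb3l3 (-4.18), Ppara, the fatty acid receptor (-4.11), Nr1i3, the xenobiotic receptor CAR (-4.09), and Nr1h3, the oxysterol receptor LXR alpha (-3.88). Foxa2, a forkhead factor of liver and gut epithelium, rose by 1.24, and Tox3 read 9.50 and 9.37 in organoids, against 6.59 and 5.91 in tissue (3.19). Of 11 fetal liver genes 1 rose and 3 fell (median -0.26). Afp, alpha-fetoprotein, read 6.71 and 6.53 in organoids, against 6.99 and 7.07 in tissue (adjusted p = 0.565), and Hmga2, a chromatin protein of embryonic cells, was the one that rose (1.76).

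Genes of bile duct epithelium were higher in 11 of 15 and lower in 2 (median 1.93). Krt19, a keratin of ducts, read 13.76 and 13.77 in organoids, against 7.29 and 7.41 in tissue (6.41 ± 0.12, adjusted p = 1.80e-09). Epcam, an adhesion protein of simple epithelia, read 12.34 and 12.41 in organoids, against 7.11 and 7.0 in tissue (5.32 ± 0.19). Sox9, the transcription factor of ducts, read 11.15 and 11.29 in organoids, against 9.18 and 8.40 in tissue (2.43 ± 0.22). Organoid and tissue arrays did not overlap in any of the 3, and Krt7 and Cldn4 rose by 5.69 and 5.11. Cftr, the chloride channel of the duct's bile side, was higher by 1.86 ± 0.21 but at a lower signal, 7.74 and 7.64 in organoids, against 5.87 and 5.80 in tissue. The 2 that fell did so narrowly. Without any 1 of the 4 liver arrays 1 or 0 members were lower. The water channel Aqp1 differed by -1.03, but its adjusted p was 0.242 without organoid replicate 2, 0.0912 without tissue replicate 1 and 0.115 without tissue replicate 2, and 0.0502 to 0.0506 without any 1 gallbladder or differentiated gallbladder organoid array.

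The apparatus of a sealed, polarised sheet was higher with them. Keratins rose in 11 of 13 (median 1.22). Krt8 and Krt18, the pair that hepatocytes carry too, rose by 1.22 and 1.53, and Krt20, of gut and urothelial surface cells, read 11.94 and 11.96 in organoids, against 6.01 and 5.96 in tissue (5.97 ± 0.40). Without organoid replicate 1 the keratins called higher numbered 7. Junction genes rose in 14 of 19 and fell in 3 (median 2.11). Cdh2 and Cdh1 moved in opposite directions. Cdh2, N-cadherin, which mouse hepatocytes carry, read 6.33 and 6.30 in organoids, against 11.61 and 11.29 in tissue (-5.13 ± 0.72), while Cdh1 averaged 13.05 in organoids, against 10.58 in tissue (2.46 ± 0.17), and Cdh17, of gut epithelium, 11.47 and 11.14 in organoids, against 6.22 and 5.99 in tissue (5.20). Among the claudins Cldn1 fell (-3.21), as did Cldn14 (-0.93), and Cldn7 rose most after Cldn4 (4.79). Integrins and laminins, which bind an epithelium to its basement membrane, rose in 11 of 17 (median 2.48). Itga2 and Itgb6 rose by 5.47 and 5.43, and the chains of laminin-332 in the list, Lama3 and Lamb3, by 2.64 and 3.68.

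Ion and fluid transport genes rose in 15 of 21 and fell in 3 (median 1.59). Those that fell were water channels: Aqp9 and Aqp8 of hepatocytes, by 6.60 and 5.14, and Aqp1. Aqp5, the water channel of glands, read 12.57 and 11.97 in organoids, against 8.64 and 8.70 in tissue (3.60). The calcium-activated chloride channel Ano1 rose by 4.68, the potassium channels Kcnn4 and Kcnq1 by 4.61 and 4.37, and the sodium-potassium-chloride carrier Slc12a2 by 2.82. The carbonic anhydrase Car9, which is also a hypoxia target, read 12.54 and 12.49 in organoids, against 6.86 and 6.60 in tissue (5.78 ± 0.31). Among the other hypoxia and glycolysis genes 5 of 13 rose, including Slc16a3, the lactate exporter (3.53), and the hydroxylase Egln3 (2.96). Over all 14, Car9 included, 6 rose, 1 fell and 7 were not called (median 0.34). Bnip3 was the member that fell (-1.39), and none was called lower after quantile normalisation.

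The 15 called genes with the largest gains were led by Dmbt1 and Gabrp. Dmbt1, a mucosal scavenger protein, read 13.97 and 13.87 in organoids, against 6.84 and 5.81 in tissue (7.60 ± 0.30, adjusted p = 5.31e-08). Gabrp, a GABA-A receptor subunit of non-neural epithelia, read 13.92 and 13.95 in organoids, against 6.81 and 6.67 in tissue (7.20 ± 0.18). After them came the adhesion receptor Adgrg7 (7.05), the protease Mmp7 (6.56), the iron-binding Ltf (6.55), the surface mucin Muc1 (6.44), Krt19, Gprc5a (6.22), Tmem45b (6.18), Tmem54 (6.16), the glycosyltransferase B4galnt2 (6.12), Krt20, Cyp2s1, the peptidoglycan receptor Pglyrp1 (5.90) and Serpinb5 (5.89). The 15 largest losses were Serpina1c (-8.78), Tdo2, Fgg, the paraoxonase Pon1 (-8.46), the urinary protein Mup3 (-8.43), Fbp1, the carboxylesterase Ces1c (-8.31), the fatty acid binding protein Fabp1 (-8.24), Alb, Slco1b2, Ahsg, Ugt3a2 (-8.07), Cyp2e1, Serpina6 and the urate oxidase Uox (-7.99).

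Mucin, trefoil and gastric-type genes were unevenly higher, 8 of 16 rising (median 0.57). Muc1 read 13.36 and 13.43 in organoids, against 7.11 and 6.79 in tissue, and the membrane mucin Muc4 9.90 and 10.28 in organoids, against 6.96 and 6.57 in tissue (3.33). The gel-forming mucin Muc5b was not called (0.10). Tuft cells are the rare chemosensory cells of bile duct and gut epithelium, and 6 of their 10 measured markers rose (median 1.02). Rgs13 read 9.95 and 9.40 in organoids, against 5.03 and 4.84 in tissue (4.75 ± 0.35, adjusted p = 2.70e-06), Gnat3, the taste G protein, 9.03 and 8.43 in organoids, against 4.55 and 4.79 in tissue, and Trpm5, its ion channel, differed by 2.42.

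Defence genes divided, with 8 of 20 higher and 5 lower (median 0.26). Ltf, lactoferrin, read 13.05 and 13.02 in organoids, against 6.43 and 6.54 in tissue, and the neutrophil attractant Cxcl5 10.77 and 11.57 in organoids, against 5.47 and 5.55 in tissue (5.66). The lectins Reg3g and Reg3b rose by 4.90 and 3.49. The acute phase genes Saa1 and Saa2 of hepatocytes fell, but the tissue replicates disagreed: Saa1 read 4.03 and 3.99 in organoids, against 13.46 and 7.23 in tissue, and Saa2 4.93 and 5.22 in organoids, against 14.04 and 9.45 in tissue. Saa1 fell by 6.33 with both tissue arrays (adjusted p = 0.0107), and its difference was -3.21 without tissue replicate 1, where it was not called (adjusted p = 0.0631), nor was it without organoid replicate 2 (adjusted p = 0.0529). Lcn2, lipocalin 2, at 13.77 and 13.72 in organoids and 13.98 and 11.13 in tissue, was not called (adjusted p = 0.183), but without tissue replicate 1 it was (adjusted p = 1.77e-05).

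Proliferation genes were mostly higher, by less than the duct genes. Of 28 measured cell cycle genes 24 rose and 0 fell (median 1.38), and of 23 replication genes 17 rose and 2 fell (median 0.83). Mki67, which encodes the proliferation antigen Ki-67, read 9.38 and 9.51 in organoids, against 7.35 and 7.36 in tissue (2.09 ± 0.22, adjusted p = 3.13e-05). Ccnb2, a cyclin of mitosis, read 10.38 and 10.40 in organoids, against 7.70 and 8.23 in tissue (2.42 ± 0.16). Mcm6, a subunit of the replicative helicase, read 9.18 and 9.05 in organoids, against 7.13 and 6.32 in tissue (2.39 ± 0.21). No organoid array overlapped a tissue array in these 3 genes. The largest gains were in Bub1 of the spindle checkpoint (2.66), cyclin A2, Ccna2 (2.66), and topoisomerase Top2a (2.59). Another, dimmer probe set of Top2a averaged 3.79 in organoids and 3.65 in tissue, a difference of 0.14. Cyclin E1, Ccne1, was not called (-0.14), and the replication genes called lower numbered 1 without tissue replicate 2 and 0 without organoid replicate 2.

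Mitotic and replication genes are known to be switched through different promoter motifs, so 1 promoter of each kind is shown, in the same windows as above. Mitotic promoters often hold CCAAT boxes, which NF-Y binds, with the cell cycle homology region TTTGAA; replication promoters often hold E2F sites, searched here as TTCCCGC or TTGGCGC, which can overlap a CCAAT box on the other strand (ATTGG). Capitals mark CCAAT and TTTGAA, on either strand, in Ccnb2 (chr9:70421505-70421804, minus strand), and CCAAT and E2F sites, on either strand, in Mcm6 (chr1:128359656-128359955, minus strand).
Ccnb2: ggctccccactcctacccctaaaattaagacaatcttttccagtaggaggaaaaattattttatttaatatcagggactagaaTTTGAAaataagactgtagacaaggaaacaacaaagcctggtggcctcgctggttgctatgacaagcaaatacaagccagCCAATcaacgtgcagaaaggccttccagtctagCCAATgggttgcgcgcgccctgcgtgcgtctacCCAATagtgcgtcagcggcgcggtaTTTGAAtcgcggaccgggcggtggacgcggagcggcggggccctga
Mcm6: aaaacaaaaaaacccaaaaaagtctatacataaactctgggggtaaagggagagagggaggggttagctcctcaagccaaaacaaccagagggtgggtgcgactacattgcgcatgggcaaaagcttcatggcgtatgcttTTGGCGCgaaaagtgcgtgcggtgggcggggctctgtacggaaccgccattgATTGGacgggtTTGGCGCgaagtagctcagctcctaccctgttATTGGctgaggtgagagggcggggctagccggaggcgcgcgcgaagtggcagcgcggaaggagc
The Ccnb2 window held 3 CCAAT boxes and 2 TTTGAA, and the Mcm6 window 2 of each of its motifs. TTTGAA was in 11 of the 20 cell cycle windows (55.0%) and in 3 of the 25 replication windows (12%), against 17.9% of all windows. E2F sites were in 3 of the 20 (15%) and 13 of the 25 (52.0%), against 6.81% of all. CCAAT was in 14 (70.0%) and 15 (60.0%), against 37.4% of all.

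The medium holds R-spondin 1 and noggin, so stem cell genes and the genes of these pathways follow. Lgr5, an R-spondin receptor and marker of proliferating stem cells, read 9.09 and 9.24 in organoids, against 9.40 and 8.41 in tissue, where the tissue values lie on both sides of the organoid values (0.26, adjusted p = 0.655, and -0.23 without tissue replicate 2). Of 16 progenitor markers 7 rose and 3 fell (median 0.27). Cd24a read 13.70 and 13.76 in organoids, against 8.33 and 8.44 in tissue (5.35 ± 0.13), and Cd44 and Prom1, surface markers of duct and progenitor cells, rose by 4.55 and 4.13. Olfm4, a stem cell gene of the gut, read 10.26 and 11.74 in organoids, against 6.73 and 6.17 in tissue (4.55).

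Wnt target genes rose in 7 of 15 and fell in 4 (median 0.26). Axin2, a feedback inhibitor of Wnt signalling, read 8.80 and 8.75 in organoids, against 8.04 and 8.04 in tissue (0.74 ± 0.10, adjusted p = 2.09e-04), the Wnt receptor ligase Rnf43 rose by 1.30 and Myc by 3.48. Notum, a secreted Wnt inhibitor, and Nkd1, an inhibitor inside the cell, fell by 1.79 and 1.04. BMP target genes, 3 of 11 higher and 2 lower (median 0.17), were near the shares over all genes, 26.7% and 18.2%. Id1 rose (3.34), Smad7 rose (1.02) and Bambi fell (-0.83), with Hamp as above. Notch pathway genes rose in 8 of 13 (median 0.47), among them the ligands Jag2 (2.76) and Jag1 (1.93) and the target Hes1 (1.74, adjusted p = 0.0509 in a fit of the liver arrays alone), and the endothelial ligand Dll4 fell (-1.05).

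Targets of YAP, the growth regulator that senses cell shape, rose in 10 of 14 and fell in 1 (median 1.60). Anxa1 and Anxa3 rose by 4.98 and 4.62, tissue factor F3 by 4.52 and Ankrd1 by 4.49, while the receptor Axl fell (-1.30). NRF2 targets, which guard against oxidants, rose in 7 of 15 (median 0.39): Gpx2 read 11.92 and 11.98 in organoids, against 6.58 and 6.77 in tissue, and the cystine carrier Slc7a11 differed by 4.39. Nqo1, often used as an NRF2 readout, went against them, at 6.08 and 5.89 in organoids, against 8.91 and 8.94 in tissue (-2.94 ± 0.30). Interferon response genes fell in 13 of 19 and rose in 1 (median -1.51), with Usp18 at -3.09 and Ifit3 at -2.52. The number called higher was 0 without tissue replicate 1 and 0 without organoid replicate 2.

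Markers of the other cells of the liver were lower. Macrophage and Kupffer cell markers fell in 15 of 16 (median -3.79); Vsig4 read 4.90 and 4.76 in organoids, against 11.74 and 11.77 in tissue, and Clec4f, particular to Kupffer cells in mice, 6.93 and 6.97 in organoids, against 11.28 and 11.01 in tissue. The whole list averaged 6.69 and 6.68 on the organoid arrays and 10.20 and 10.12 on the tissue arrays. Sinusoid endothelium fell in 15 of 16 (median -3.43), averaging 6.84 and 6.84 in organoids and 10.10 and 10.21 in tissue, with Clec4g at -5.63 and Stab2 at -3.72. Another, dimmer probe set of Clec4g averaged 5.53 in organoids and 5.67 in tissue, a difference of -0.14. The endothelial member that rose was the VEGF receptor Flt1 (1.57). Stellate cell and fibroblast markers fell in 15 of 16 (median -1.83), averaging 7.27 and 7.18 in organoids and 9.39 and 9.40 in tissue; the matrix protein Dcn read 5.92 and 5.52 in organoids, against 12.30 and 12.25 in tissue. Lymphocyte and neutrophil markers fell in 9 of 15 (median -1.29), averaging 6.09 and 6.06 in organoids and 7.41 and 7.50 in tissue, with the antigen presentation chain Cd74 at -4.60. Without organoid replicates 1 and 2, each in turn, 5 and 4 of them fell. The share of the interferon and hepatocyte differences that follows cell content was not tested.

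**Figure D4:**
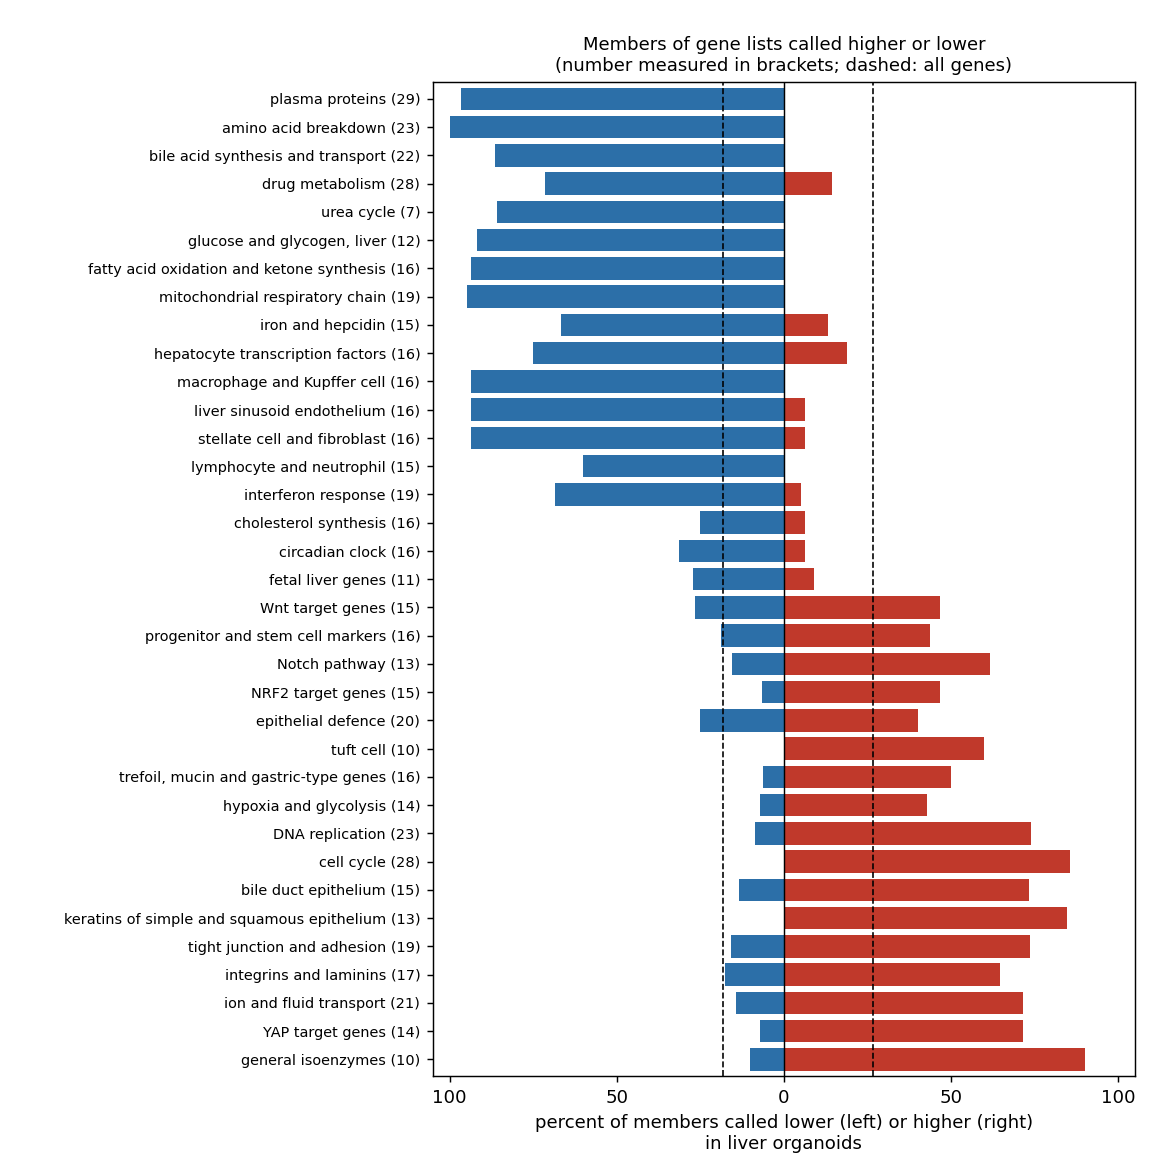
For each gene list (rows, number measured in brackets) the bar to the left is the percent of members called lower and the bar to the right the percent called higher in liver organoids than in liver tissue; dashed lines mark the same shares over all genes, 18.2% and 26.7%. Hepatocyte and other liver cell lists extend left, duct, junction, keratin and cell cycle lists right, and the circadian clock and cholesterol synthesis have short bars both ways.

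The organoid arrays lay 2 log2 units or more apart in 4 genes, and the tissue arrays in 81. Jun, an immediate early factor, read 11.51 and 11.48 in organoids, against 13.01 and 8.70 in tissue (adjusted p = 0.655), and Gadd45b, a stress gene, 11.31 and 11.27 in organoids, against 12.26 and 7.12 in tissue (adjusted p = 0.35). In both the organoid values lie between the tissue values, so the sign turns with the tissue array left out: Jun differed by 2.80 without tissue replicate 1 and -1.51 without replicate 2, and Gadd45b by 4.17 and -0.97. Of 16 clock genes 5 fell and 1 rose (median -0.60): Dbp read 9.51 and 9.16 in organoids, against 8.99 and 11.91 in tissue, and Arntl 8.90 and 9.0 in organoids, against 9.22 and 7.11 in tissue, neither called. Dbp differed by -1.11 over all arrays, by -2.57 without tissue replicate 1 and by 0.35 without tissue replicate 2. For Arntl these differences were 0.79, 1.84 and -0.27. Jun, Gadd45b, Dbp and Arntl were each called without tissue replicate 1, and Jun was called in the other direction without replicate 2. The counts were as unsteady: circadian genes called higher numbered 4, 3 and 0 without tissue replicate 1, tissue replicate 2 and organoid replicate 2, and those called lower 2 without organoid replicate 2.

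Whether these changes are shared by another organ was asked for a fixed set of core genes, by testing the liver difference minus the small intestine difference in the same model. Of 13 measured genes 11 differed between the organs, where 35.2% of all genes did. The set holds hepatocyte and duct markers and was chosen with earlier results of these data known, so its share is only descriptive. Krt19 and Epcam, which rose in liver, read 13.11 and 13.12 and 12.50 and 12.60 in small intestine organoids, against 13.33 and 13.09 and 13.05 and 12.67 in small intestine tissue, so the differences there were -0.09 and -0.30 and the interactions 6.50 and 5.63. Cps1, lost in liver organoids, read 12.93 and 13.21 in small intestine organoids, against 12.62 and 12.96 in small intestine tissue (interaction -8.07). Lgr5 was the reverse: small intestine organoids read 12.63 and 12.44, against 8.75 and 8.74 in small intestine tissue, a difference of 3.79, and the interaction was -3.53 (adjusted p = 8.05e-04). Axin2 rose in both organs, by 0.74 in liver and 1.73 in small intestine (interaction -0.99, adjusted p = 5.01e-04). Ttr moved in opposite directions, -1.67 in liver and 2.20 in small intestine (interaction -3.87, adjusted p = 3.66e-06). Sox9 differed by 2.43 in liver and 2.44 in small intestine, and Mki67 by 2.09 and 1.37; the interactions were -0.01 (adjusted p = 0.979) and 0.72 (adjusted p = 0.106), neither called. The interaction of Mki67 was called without small intestine tissue replicate 2 (adjusted p = 0.0424) and without either gallbladder tissue array (adjusted p = 0.0189). Small intestine tissue also holds muscle: the median difference of the smooth muscle list was -3.99 there and -0.50 in liver, and its part in these interactions was not tested.

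**Figure D5:**
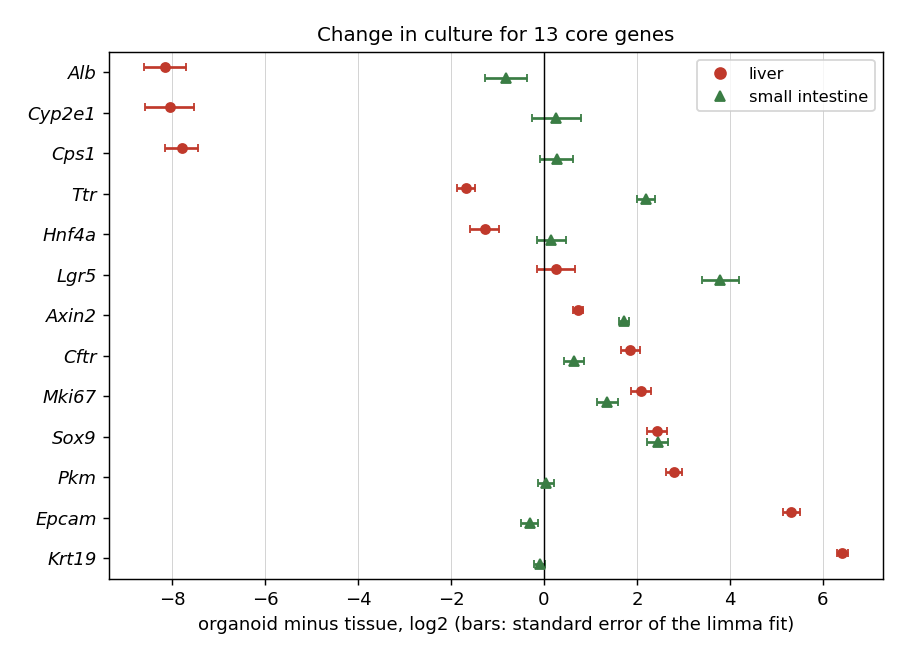
Organoid minus tissue difference in log2 units (x axis) with its standard error (bars) for 13 core genes (rows), in liver (circles) and small intestine (triangles), each from 2 against 2 arrays. Liver and small intestine lie together for Sox9 and apart for Krt19, Epcam, Alb, Cyp2e1, Cps1 and Lgr5.

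Across genes, liver organoids correlated with gallbladder organoids at r = 0.974 to 0.975, with differentiated gallbladder organoids (2 weeks without R-spondin 1, noggin and nicotinamide) at 0.981 to 0.982, with small intestine organoids at 0.907 to 0.911 and with liver tissue at 0.800 to 0.808, which is a description with no test. Ttr read 12.67 and 12.56 in liver organoids, against 10.15 and 10.45 in gallbladder organoids, and Ambp 12.47 and 12.83 in liver organoids, against 13.11 and 13.16 in gallbladder organoids. Krt19 read 13.35 and 13.43 in gallbladder organoids and Alb 6.60 and 6.33, close to the liver organoid values given above.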

How the data were processed

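The authors deposited log2 signals, 1 per probe set and array, computed with RMA per the submitters' processing notes (background correction, normalisation and probe summary in 1 step); its version was not given in the sources used here. Each of the 14 arrays is 1 sample. Of 35556 probe sets, 21789 had 1 gene symbol in the array annotation, 1621 several and 12146 none; 21698 had their gene number in a mouse gene table, which changed 0 symbols. Those with 1 symbol were kept, and the probe set with the highest mean stood for each of the 999 genes with several, which left 19938 genes, all tested.

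The model held 1 mean for each group and took in all 14 arrays (limma 3.58.1, run in R 4.3.3), leaving 7 degrees of freedom for the spread, or 9.91 once the prior is added, and p-values were adjusted by Benjamini-Hochberg, with 0.05 as the threshold. The number of arrays limits the precision: an exact permutation test of 2 against 2 arrays cannot go below 0.333. The code was tested on simulated arrays with known changes. The members, the 46 gene lists and the tests were chosen with earlier results of these data known. Lists are described by counts and medians, and members of a list with no probe set of 1 symbol were not analysed here. The text names the 15 genes of largest difference each way among those called whose arrays do not overlap, the core genes, and the 4 members of each list with the largest differences; others are named for their role, after their values were seen. Promoter windows came from a RefSeq table (GRCm38.p6). Replicate numbers were checked as pairs: the deviations of liver organoids and liver tissue correlated at r = -0.0031, so they were not treated as pairs.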

Additional observations from a re-analysis of the deposited data

Results flagged for a closer look

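The difference between organoids and tissue was not the same in liver and small intestine for 11 of the 13 core genes, tested as the liver difference minus the small intestine difference (limma, adjusted over all genes, n = 2 arrays per group). In hepatocyte genes it was -7.34 for Alb (adjusted p = 1.56e-05), -8.32 for Cyp2e1 (adjusted p = 2.00e-05), -8.07 for Cps1 (adjusted p = 2.14e-06), -3.87 for Ttr (adjusted p = 3.66e-06) and -1.43 for Hnf4a (adjusted p = 0.0274). In epithelial genes it was 6.50 for Krt19 (adjusted p = 2.43e-08), 5.63 for Epcam (adjusted p = 4.43e-07) and 1.21 for Cftr (adjusted p = 0.00937). In the Wnt-related genes it was -3.53 for Lgr5 (adjusted p = 8.05e-04) and -0.99 for Axin2 (adjusted p = 5.01e-04), and in Pkm 2.75 (adjusted p = 1.56e-05). Cyp2e1 read 9.15 and 8.60 in small intestine organoids, against 9.53 and 7.69 in small intestine tissue. Pkm read 12.49 and 12.46 in small intestine organoids, against 12.16 and 12.71 in small intestine tissue. Krt19 and Epcam, as given above, already read high in small intestine tissue, which left little room for a rise there. The set holds hepatocyte and duct markers chosen with earlier results of these data known, so the number that differed is only descriptive. The Hnf4a interaction was the least firm: its call was lost without any 1 of 7 arrays. These were the 2 of small intestine organoids, the 2 of small intestine tissue, the 2 of liver organoids and replicate 1 of liver tissue. With only the liver and small intestine arrays it was called (limma, adjusted p = 8.15e-04), as with array weights (adjusted p = 0.00393).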

How the results depend on the processing

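A minimum difference of 1 log2 unit lowered the counts most, to 2546 genes higher and 1901 lower. Under the other alternatives run both counts stayed within 1.5 times those reported: quantile normalisation gave 4956 higher and 3854 lower, median centring 4660 and 4318, the filter on dim genes 4937 and 2714, the 4 arrays compared alone 4717 and 3245, and array weights, an intensity trend with robust fitting, and averaged probe sets at least 5197 and 3527. With the replicate number as a block, 5291 genes were higher, 3615 lower and 11 core interactions were called; no named gene changed its call. Leaving out 1 array at a time gave 4337 to 5570 higher, 2675 to 3925 lower and 10 to 12 core interactions; a group left with 1 array is assumed to vary like the others. Of 46 lists in both directions, 88 of 2116 counts moved by over 1.5 times, among them keratins (7 higher with the 4 arrays alone or without dim genes) and Notch genes (5 higher with the 4 arrays alone). The sign of 6 named genes turned with the tissue array left out: Arntl was 1.84 without liver tissue replicate 1 and -0.27 without replicate 2, Dbp -2.57 and 0.35, Gadd45b 4.17 and -0.97, Jun 2.80 and -1.51, Lcn2 2.62 and -0.24, and Lgr5 0.75 and -0.23. The cause was not tested. The number of arrays and the ceiling of the scale set the limits: small differences and those of the brightest or dimmest probe sets are the least secure.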

Other observations

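Genes that mark the gallbladder and the extrahepatic ducts were mixed in liver organoids, with 5 of 10 higher and 3 lower than in liver tissue (median 1.08). Sox17, a transcription factor of the extrahepatic biliary tree, read 10.65 and 10.22 in organoids, against 7.61 and 7.37 in tissue (2.95 ± 0.18, adjusted p = 8.86e-07), and Gata6 rose by 1.97. Pdx1, a factor of pancreas and duodenum, read 9.14 and 9.04 in organoids, against 6.92 and 6.68 in tissue (2.29 ± 0.70, adjusted p = 0.0215), and its call ended without any 1 of the 4 liver arrays (adjusted p = 0.0614, 0.087, 0.0864 and 0.0784). Gata4 and Foxf1 fell by 1.58 and 1.88. Of 12 genes of small intestine epithelium, Vil1, the villin of brush borders, read 11.57 and 11.72 in organoids, against 6.55 and 7.01 in tissue (4.86), and Cdx2, the intestinal identity factor, 8.71 and 8.02 in organoids, against 7.23 and 7.21 in tissue (1.14). The lipid handling genes Fabp2, Apoa4 and Mttp of that list fell by 6.24, 6.06 and 4.05, and the peptidase Anpep by 5.33. Lct, the lactase of enterocytes, was not called (-0.15).

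Sex-biased liver genes of both kinds were lower in organoids, 6 of 9 falling (median -3.10). Cyp2b9 and Cyp2b13, higher in female mouse liver, read 6.35 and 6.45 and 4.70 and 4.71 in organoids, against 13.39 and 13.47 and 10.93 and 11.04 in tissue. Cyp4a12a, higher in male mouse liver, was the member that rose, at 8.28 and 8.47 in organoids, against 5.73 and 5.74 in tissue (2.64 ± 0.20, adjusted p = 3.27e-06).

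Pancreas acinar genes had 0 higher and 0 lower of 8 (limma, 0 at an unadjusted p below 0.05), and 1 lower without either small intestine tissue array. Against 18.2% of all genes, red blood cell genes had 2 lower of 4 and smooth muscle genes 5 lower of 10, with Acta2 at -2.20. Without organoid replicate 2, 3 smooth muscle genes and 1 red blood cell gene were lower, and without tissue replicate 1, 1 red blood cell gene was.

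The organoid replicates lay 2 log2 units or more apart in 4 genes. The widest gap was in Tlcd4, which read 9.86 and 6.15 in organoids, against 12.10 and 12.14 in tissue, and the next in Slc2a2. The tissue replicates lay furthest apart in Saa1 and Gadd45b, and the insulin-like growth factor binding protein Igfbp1, high on fasting and stress, read 6.87 and 6.85 in organoids, against 13.30 and 9.24 in tissue. These genes were chosen by the size of the gap between replicates.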
